A study of Mus musculus with 12 samples.

Results

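The 29 genes described here encode the enzymes and regulators of cholesterol and fatty acid synthesis in the mouse. They were found by gene symbol in a table of 56722 genes, and all 29 were present and passed the filter on low counts, as did 19821 genes in all. Messenger RNA was measured in whole kidneys of Pod-TRECK mice, a line whose podocytes are injured by diphtheria toxin. Diphtheria toxin, 100 ng by the intraperitoneal route, had been given 5, 14 or 21 days earlier, and Pod-TRECK control mice were left untreated. Each of the 4 groups had 3 biological replicates. All 12 libraries came from mice of the same genotype and carry 1 batch label. The promoter that drives the toxin receptor, the age, the sex and the hour of collection are not given in the labels, and control mice received no sham injection. The question addressed is how these genes moved over the course of podocyte injury, a glomerular lesion, in RNA of which podocytes are a small part.

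Cholesterol is built from acetyl-CoA through mevalonate, isoprenoid units, squalene and lanosterol, which a set of demethylases, reductases and isomerases turns into cholesterol. Most genes of this route are switched on by SREBP-2 (Srebf2) and those of fatty acid synthesis by SREBP-1 (Srebf1). Both factors are escorted by Scap to the Golgi for cleavage when membrane sterol is low, and are held back by Insig1 and Insig2 when it is high. The kidney is not a main source of cholesterol in the body, and the energy of the proximal tubule, its largest segment by mass, comes mostly from burning fatty acids.

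Relative to the bulk of genes, most synthesis genes fell by day 14, although scaling to library totals instead turned that to 9 lower and 14 higher. Part of the fall was present at day 5, and between day 5 and day 14 some genes of the route went further down while others went up. At day 5, 13 of 29 genes were lower than in control kidneys and every fitted change was negative, where 14.9% of all tested genes were called, 5.09% as lower and 9.77% as higher. At day 14, 19 genes were lower and 3 higher, where 60% of all genes were called, 28.8% as lower and 31.2% as higher. At day 21, 15 genes were lower and 3 higher, where 42.8% of all genes were called, 18.5% as lower and 24.3% as higher. A gene was called when its adjusted p in edgeR's quasi-likelihood test was under 0.05. Over the 3 days together, 27 of 29 genes differed between groups in a joint test, beside 66.1% of all genes (28 without day-21 replicate 2, which is described below, beside 76.9%).

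**Figure D1:**
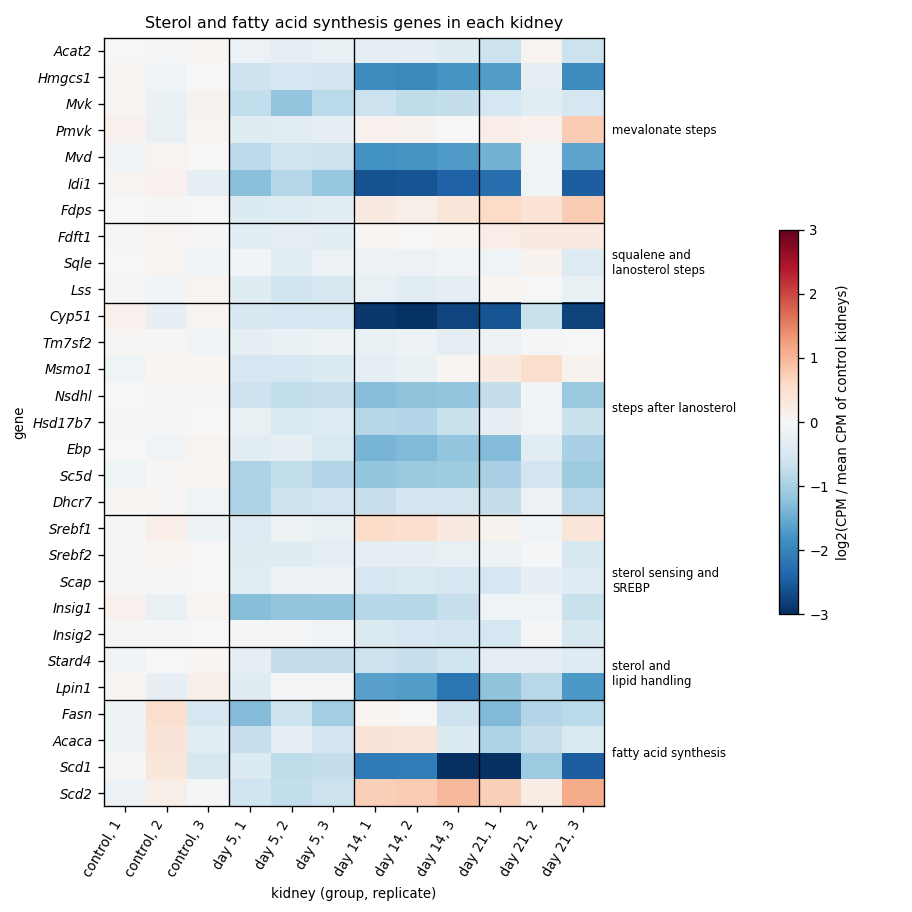
Heat map of log2(CPM / mean CPM of the control kidneys), where CPM is the count scaled to library size with TMM factors, for the 29 genes (rows, grouped by role) in the 12 kidneys (columns). The deepest blue lies at day 14 in Cyp51, Idi1, Scd1, Hmgcs1, Mvd and Lpin1, and day-21 replicate 2 is paler than the other day-21 kidneys in these rows.

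The median log2 fold change of the 29 at day 5 was -0.48, where 49.7% of all genes were negative and their median was 0.00. At day 14 the median of the 29 was -0.50 beside 0.08 for all genes, and at day 21 it was -0.36 beside 0.07. Scaling to library totals instead of TMM factors moved the median of all genes to 0.15 at day 5, 0.80 at day 14 and 0.55 at day 21. The median of the 29 then stood at -0.34, 0.23 and 0.09, again below that of all genes. With this scaling 28 of 29 changes were negative at day 5 (Insig2 was at 0.08), and 5 genes were called lower at day 5, beside 2.78% of all genes called lower and 9.68% higher. At day 14 it was 9 lower and 14 higher, beside 11.2% and 66.4%, and at day 21 it was 6 lower and 10 higher, beside 7.38% and 55.7%. Library totals ended 8 calls at day 5 (Fdps, Fdft1, Lss, Msmo1, Srebf2, Stard4, Fasn and Scd2), 5 at day 14 (Mvk, Hsd17b7, Dhcr7, Insig1 and Stard4) and 9 at day 21 (Mvk, Mvd, Nsdhl, Dhcr7, Scap, Insig2, Stard4, Fasn and Acaca). Directions below are therefore relative to the bulk of genes. The 3 comparisons share the control libraries.

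The 3 toxin kidneys lay wholly below the 3 controls in 25 genes at day 5, where this was so of 23.7% of all genes and another 25.2% lay wholly above. At day 14 they lay below in 21 genes and above in 3, Fdps, Srebf1 and Scd2, beside 34.3% and 38.6% of all genes. At day 21 it was 17 and 4, beside 20.9% and 24.3%.

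Total counts per library ran from 31023852 to 46420299. Of 6 podocyte markers, 5 were lower at day 5, beside 5.09% of all genes. The sum of the 6 was 83.9 to 101 CPM at day 5 against 279 to 299 CPM in control kidneys. Day-21 replicate 2 stood apart from its group: on the first principal component of all genes it scored -36.8, beside 73.0 and 80.1 for the other day-21 libraries and -44.5 to -37.4 for day 5. Its mitochondrial share of counts was 21.1%, against 11.8% in both other day-21 libraries, 8.98 to 9.46% at day 14 and 22.4 to 23.7% in control. Without it, 22 genes were lower at day 5, where 14.9% of all genes were called lower and 17.4% higher, 20 were lower and 3 higher at day 14, beside 30.9% and 34.7%, and 21 were lower and 4 higher at day 21, beside 28.4% and 33.2%. No call against control was lost without it. The 9 genes that then passed in addition at day 5 were Acat2, Hmgcs1, Mvd, Idi1, Cyp51, Tm7sf2, Hsd17b7, Ebp and Scap, the 1 at day 14 was Acat2, and the 7 at day 21 were Acat2, Pmvk, Idi1, Sqle, Hsd17b7, Srebf2 and Insig1. At day 5 the fold changes were near the same in both fits and the standard errors were smaller without it. Day-14 replicates 1 and 2 were closer to each other than any other pair of replicates, with a chi-square of 4.59 per degree of freedom. The design text calls the replicates biological and does not say which mouse each came from, so whether this pair shares a source was not tested. Summed as 1 sample, they left 9 genes lower at day 5, 17 lower and 3 higher at day 14, and 13 lower and 3 higher at day 21, beside 11.6, 52.2 and 37.3% of all genes called.

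Leaving out other single libraries also moved these counts. At day 5 the number lower was 6, 8 and 7 without day-5 replicates 1, 2 and 3, and 8 without control replicate 2, beside 2.64, 2.36, 2.25 and 4.02% of all genes called lower, against 5.09% with all libraries. Of the 13 calls at day 5, those of Mvk, Fdft1, Lss, Sc5d, Insig1 and Stard4 were still made without each of the 12 libraries in turn. At day 14 this was so for 17 of 22 calls, and the number higher was 1 without control replicate 1, control replicate 3 or day-14 replicate 1, beside 26, 24.9 and 27.5% of all genes called higher. At day 21 it was so for 7 of 18 calls, namely Fdps, Cyp51, Ebp, Sc5d, Scap, Lpin1 and Scd1. There the number lower was 8, 7 and 9 without control replicates 1, 2 and 3, and 6 and 7 without day-21 replicates 1 and 3, while the number higher was 1 without control replicate 1. All genes called lower in these 5 fits made up 13, 12.5, 11.2, 10.1 and 8.92%, and those called higher without control replicate 1 made up 17.1%.

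**Figure D2:**
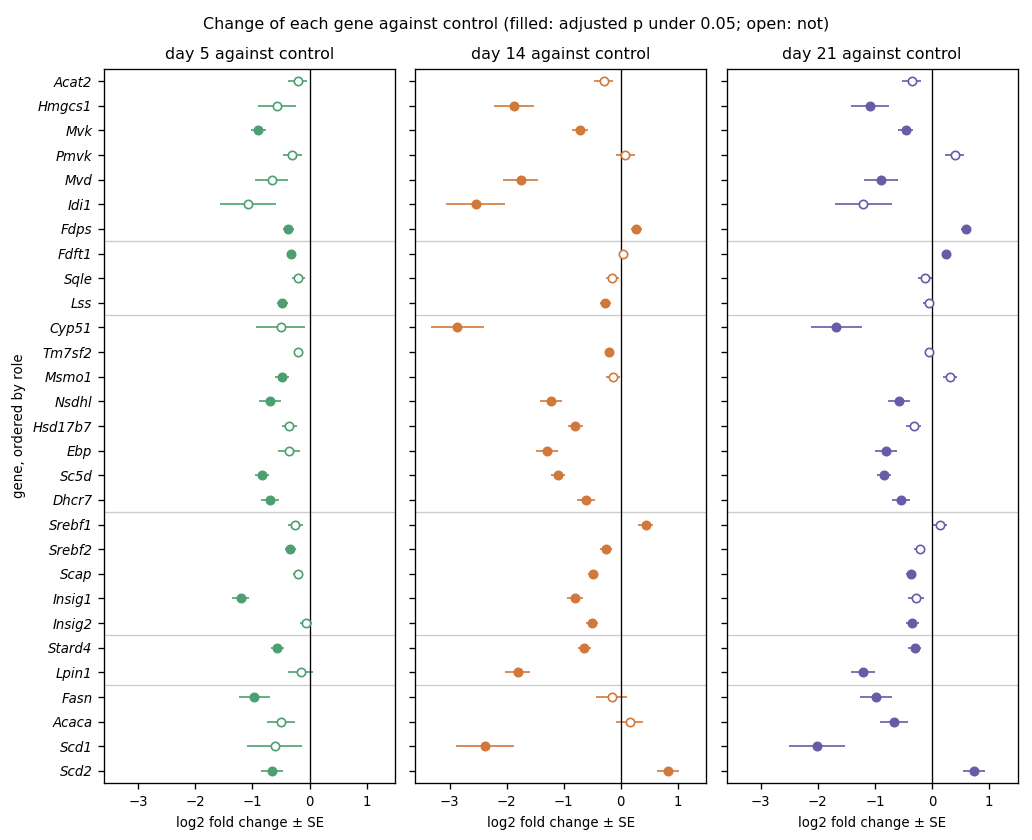
Log2 fold change of each gene at day 5, day 14 and day 21 against control (x axis, TMM scaling; bars, standard error; 3 kidneys per group), with genes ordered by role. Filled points have an adjusted p under 0.05, and the gene farthest to the left is Cyp51 at day 14, at -2.86.

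The start regions of 4 genes are shown here, because Hmgcs1, Idi1 and Cyp51 had the deepest falls of the sterol route and Insig1 had a different time course. They were chosen after the values were seen. Each is the RefSeq window from 250 bases before to 50 after the start of the gene on assembly GRCm38.p6, an older build than the GRCm39 of the count table, so its coordinates are not on the scale of the gene positions given further on. Hmgcs1 lies at chr13:119690101-119690400 (plus strand), Idi1 at chr13:8885356-8885655 (plus strand), Cyp51 at chr5:4104648-4104947 (minus strand) and Insig1 at chr5:28071162-28071461 (plus strand). Capitals mark matches, on either strand, to TCACNCCAC (a form of the sterol regulatory element bound by SREBP), CACGTG (an E-box), CCAAT (the NF-Y box, ATTGG on the other strand) and GGGCGG (the Sp1 box, CCGCCC on the other strand).
Hmgcs1: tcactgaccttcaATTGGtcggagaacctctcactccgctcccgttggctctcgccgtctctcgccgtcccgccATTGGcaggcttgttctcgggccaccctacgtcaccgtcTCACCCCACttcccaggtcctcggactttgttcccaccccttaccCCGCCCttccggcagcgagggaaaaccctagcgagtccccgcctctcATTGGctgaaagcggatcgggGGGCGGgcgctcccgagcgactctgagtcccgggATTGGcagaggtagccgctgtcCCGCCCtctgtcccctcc
Idi1: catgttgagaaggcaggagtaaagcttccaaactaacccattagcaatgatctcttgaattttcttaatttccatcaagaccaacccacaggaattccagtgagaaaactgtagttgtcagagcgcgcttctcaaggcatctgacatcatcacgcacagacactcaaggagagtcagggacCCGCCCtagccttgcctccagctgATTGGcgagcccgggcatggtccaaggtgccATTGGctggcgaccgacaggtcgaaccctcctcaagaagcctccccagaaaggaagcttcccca
Cyp51: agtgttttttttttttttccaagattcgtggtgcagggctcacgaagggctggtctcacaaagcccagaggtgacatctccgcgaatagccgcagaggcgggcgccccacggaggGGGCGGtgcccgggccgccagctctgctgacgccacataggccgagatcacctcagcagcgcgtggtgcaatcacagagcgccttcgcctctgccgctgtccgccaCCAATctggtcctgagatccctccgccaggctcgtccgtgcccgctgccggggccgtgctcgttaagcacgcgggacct
Insig1: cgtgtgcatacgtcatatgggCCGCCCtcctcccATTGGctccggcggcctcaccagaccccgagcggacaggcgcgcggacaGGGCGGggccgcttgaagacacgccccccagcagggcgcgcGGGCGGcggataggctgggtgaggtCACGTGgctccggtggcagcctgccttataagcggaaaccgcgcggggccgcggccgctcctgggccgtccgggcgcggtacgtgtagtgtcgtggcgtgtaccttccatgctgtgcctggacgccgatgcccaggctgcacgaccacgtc
Of the 29 genes, 23 had such a window. TCACNCCAC was found in 1 of them, Hmgcs1, against 1.44% of 27025 genes with a window. CCAAT and GGGCGG were each found in 19 of 23, against 41.1% and 38.2% of all genes. CACGTG was found in 5 of 23, namely Hsd17b7, Sc5d, Dhcr7, Scap and Insig1, against 8.09% of all genes. A match is a description of the letters in the window and not evidence of binding.

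Within the mevalonate steps the 7 genes parted into a group that fell steeply and a group that did not. Hmgcs1, Mvd and Idi1 had the deepest falls, Mvk fell early, Fdps fell and then rose, and Acat2 and Pmvk passed the test in no comparison with all libraries. Summed over the 7 genes, the level was 1049 to 1137 CPM in control kidneys, 688 to 746 CPM at day 5, 364 to 386 CPM at day 14 and 369 to 958 CPM at day 21.

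Hmgcs1, the cytosolic enzyme that makes HMG-CoA (chromosome 13, 120151915 to 120169796, GRCm39), measured 726, 635 and 689 CPM in control kidneys, 443, 479.7 and 459 CPM at day 5, 184, 177 and 199 CPM at day 14, and 214, 565 and 184 CPM at day 21. The groups up to day 14 did not overlap, and at day 21 replicates 1 and 3 lay with day 14 while replicate 2 lay near control. The log2 fold change was -0.57 ± 0.33 (SE) at day 5, which passed the test only without day-21 replicate 2 (adjusted p = 0.293 with it and 0.000206 without). It was -1.87 ± 0.34 at day 14 (adjusted p = 0.00089), and -1.09 ± 0.34 at day 21 (adjusted p = 0.0252, or -1.79 ± 0.09 without replicate 2). Hmgcs1, Idi1, Mvd, Cyp51, Fasn and Acaca were chosen for detail after their values were seen.

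Idi1, which isomerises isopentenyl diphosphate (chromosome 13, 8935537 to 8942487), measured 209, 216 and 164 CPM in control kidneys, 82.7, 108 and 88.9 CPM at day 5, 32.1, 32.7 and 36.4 CPM at day 14, and 40.9, 180.3 and 35.3 CPM at day 21. Each of the first 3 groups lay wholly below the one before it. At day 14 Idi1 stood at 17.2% of the control mean, a log2 fold change of -2.54 ± 0.52 (adjusted p = 0.00162). At day 21 the fall did not pass the test with all libraries (-1.20 ± 0.49, adjusted p = 0.0695) and did without replicate 2 (-2.37 ± 0.15, adjusted p = 9.15e-08). At day 5 it was likewise -1.07 ± 0.49 (adjusted p = 0.177 with replicate 2 of day 21 and 5.55e-05 without). Mvd, which makes isopentenyl diphosphate, followed the same course, at 63.0% of the control mean at day 5, 29.6% at day 14, and at day 21 35.5% in replicates 1 and 3 and 91.6% in replicate 2. Its fall passed the test at day 5 only without day-21 replicate 2 (-0.67, adjusted p = 0.163 with it and 6.3e-05 without), and at day 14 (-1.76 ± 0.30, adjusted p = 0.000647) and day 21 (-0.89 ± 0.30, adjusted p = 0.0341).

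Mvk, mevalonate kinase, measured 11.6, 9.67 and 11.8 CPM in control kidneys, 6.60, 4.84 and 6.35 CPM at day 5, 7.04, 6.46 and 6.70 CPM at day 14, and 7.63, 8.70 and 7.73 CPM at day 21. All 9 toxin kidneys lay below all 3 controls, and the lowest was at day 5. The log2 fold change was -0.90 ± 0.14 at day 5 (adjusted p = 0.00152), -0.71 ± 0.13 at day 14 (adjusted p = 0.00107) and -0.46 ± 0.13 at day 21 (adjusted p = 0.0204), while scaling to library totals put the last 2 at 0.02 and 0.01. The low counts of Mvk, 392 and 321 reads in control replicates 1 and 2, are the depth behind these values.

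Fdps, which joins isoprenoid units into farnesyl diphosphate (chromosome 3, 89000895 to 89009266), went both ways. It measured 18.9, 19.7 and 19.0 CPM in control kidneys, 14.5, 14.6 and 15.5 CPM at day 5, 23.0, 21.9 and 24.9 CPM at day 14, and 28.7, 25.6 and 32.8 CPM at day 21. No group overlapped another, with day 5 lowest and day 21 highest. Fdps was lower at day 5 (-0.37 ± 0.09, adjusted p = 0.0232), and higher at day 14 (0.27 ± 0.09, adjusted p = 0.0253) and day 21 (0.60 ± 0.09, adjusted p = 0.00158). Of these, the call at day 21 was made without each library in turn, and the others were lost without 3 and 5 of the 12. Fdps overlaps Gm43738 on the same strand, and the row of Gm43738 moved alike (-0.30 ± 0.10 at day 5, which did not pass the test, 0.41 ± 0.10 at day 14 and 0.65 ± 0.10 at day 21), so reads of the pair could not be told apart.

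Acat2, which condenses acetyl-CoA, measured 98.3 to 105 CPM at day 14 against 122 to 131 CPM in control kidneys, and its change of -0.30 ± 0.17 passed the test only without day-21 replicate 2 (adjusted p = 0.141 with it and 0.000391 without). The same was so at day 5 (-0.21, adjusted p = 0.445 with it and 0.0125 without) and at day 21 (-0.36, adjusted p = 0.101 with it, and -0.65, adjusted p = 3.28e-06, without). Library totals put it at 0.43 at day 14 and 0.07 at day 21. Pmvk, phosphomevalonate kinase, measured 10.6, 10.1 and 15.7 CPM at day 21 against 10.1, 7.86 and 9.72 CPM in control kidneys, a change of 0.40 ± 0.16 (adjusted p = 0.0709, and 0.0138 without replicate 2).

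**Figure D3:**
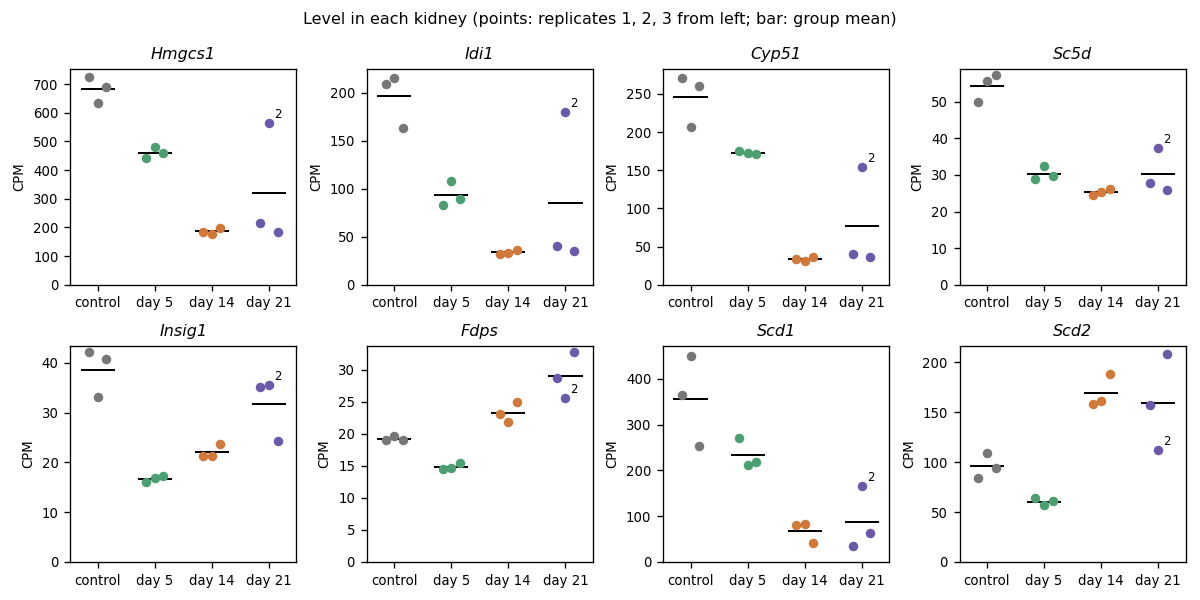
CPM (y axis) of 8 genes in each kidney by group, with points for replicates 1 to 3 from the left, the bar at the group mean, and the digit 2 beside day-21 replicate 2. Hmgcs1, Idi1 and Cyp51 stepped down to day 14, Insig1 was lowest at day 5, and Fdps and Scd2 were lowest at day 5 and above control at days 14 and 21.

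The squalene and lanosterol steps moved little at day 14, with log2 fold changes from -0.27 to 0.03. At day 5 the changes ran from -0.48 to -0.20, and 2 of the 3 genes were lower, beside 5.09% of all genes. Their summed level was 108 to 115 CPM in control kidneys, 85.4 to 97.6 CPM at day 5, 98.8 to 104 CPM at day 14 and 97.1 to 121 CPM at day 21. Fdft1, squalene synthase, measured 22.8, 24.9 and 23.1 CPM in control kidneys, 18.7, 19.3 and 18.8 CPM at day 5, 24.4, 23.4 and 24.7 CPM at day 14, and 27.0, 28.3 and 28.3 CPM at day 21. The day-5 kidneys lay below and the day-21 kidneys above all others, while day 14 overlapped control. Fdft1 was lower at day 5 (-0.32 ± 0.07, adjusted p = 0.0081), did not pass the test at day 14 (0.03 ± 0.07, adjusted p = 0.668), and was higher at day 21 (0.24 ± 0.07, adjusted p = 0.0155, a call lost without control replicate 1 or 3). Day-21 replicate 2 was 1.02 times the mean of the other day-21 kidneys in Fdft1.

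Lss, lanosterol synthase, measured 20.2, 19.5 and 21.9 CPM in control kidneys, 15.9, 13.6 and 14.8 CPM at day 5, 17.6, 16.5 and 17.1 CPM at day 14, and 21.5, 20.3 and 17.6 CPM at day 21. Days 5 and 14 lay below control and day 21 overlapped it. The fall passed the test at day 5 (-0.48 ± 0.10, adjusted p = 0.00711) and narrowly at day 14 (-0.27 ± 0.09, adjusted p = 0.0298, and 0.46 with library totals), but not at day 21 (-0.06 ± 0.09, adjusted p = 0.644). Sqle, squalene epoxidase and a rate-limiting enzyme of the route, passed the test in no comparison with all libraries: it measured 63.3 to 70.5 CPM in control kidneys, 52.6 to 63.0 CPM at day 5, 58.9 to 61.9 CPM at day 14 and 51.3 to 72.1 CPM at day 21. Its change at day 14 was -0.15 ± 0.12 (adjusted p = 0.287), or 0.58 with library totals. At day 21 it was -0.12 (adjusted p = 0.401), and -0.26 without replicate 2, which passed the test (adjusted p = 0.0257).

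Of the 8 genes that act after lanosterol, 4 were lower at day 5, 7 at day 14 and 5 at day 21. All genes called lower at these times made up 5.09, 28.8 and 18.5%. Cyp51, lanosterol 14-alpha-demethylase (chromosome 5, 4131145 to 4154746), had the deepest fall of all 29 genes. It measured 271, 206 and 261 CPM in control kidneys, 175, 173 and 171 CPM at day 5, 33.2, 31.7 and 36.6 CPM at day 14, and 40.7, 154 and 35.8 CPM at day 21. Day 5 lay below control and day 14 far below both, with day-21 replicates 1 and 3 near day 14 and replicate 2 just below the day-5 kidneys. At day 14 Cyp51 stood at 13.8% of the control mean (-2.86 ± 0.47, adjusted p = 0.000458). At day 21 it was lower by -1.68 ± 0.45 (adjusted p = 0.0144, or -2.69 ± 0.12 without replicate 2), and at day 5 the change of -0.51 ± 0.44 passed the test only without that library (adjusted p = 0.486 with it and 0.00202 without).

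Sc5d, lathosterol oxidase, measured 50.01, 55.8 and 57.3 CPM in control kidneys, 28.8, 32.5 and 29.8 CPM at day 5, 24.4, 25.3 and 26.1 CPM at day 14, and 27.8, 37.2 and 26.0 CPM at day 21. All 9 toxin kidneys lay below all controls. Most of its fall was present by day 5 (-0.84 ± 0.12, adjusted p = 0.00117), and stood at -1.11 ± 0.12 at day 14 (adjusted p = 5.29e-05) and -0.84 ± 0.12 at day 21 (adjusted p = 0.00114). Ebp, the sterol isomerase, measured 63.5, 59.7 and 66.8 CPM in control kidneys, 50.4, 51.6 and 46.1 CPM at day 5, 24.2, 25.1 and 28.0 CPM at day 14, and 25.7, 50.7 and 32.5 CPM at day 21. The groups again stepped down without overlap to day 14, and day-21 replicate 2 lay among the day-5 kidneys. Ebp did not pass the test at day 5 (-0.36 ± 0.19, adjusted p = 0.247, and 0.0103 without day-21 replicate 2) and fell at day 14 (-1.30 ± 0.19, adjusted p = 0.000281) and day 21 (-0.80 ± 0.19, adjusted p = 0.00954).

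The C4-demethylation genes did not move as 1 block. Nsdhl, the C4-decarboxylase, fell to 62.1% of the control mean at day 5 and 42.7% at day 14 (-1.23 ± 0.20, adjusted p = 0.000391), and was lower at day 21 (-0.57 ± 0.19, adjusted p = 0.0351). Hsd17b7, the 3-ketosteroid reductase, passed the test at day 14 (-0.80 ± 0.13, adjusted p = 0.000501), a fall that library totals put at -0.07 (adjusted p = 0.598). Its changes of -0.35 ± 0.13 at day 5 and -0.32 ± 0.13 at day 21 passed the test only without day-21 replicate 2 (adjusted p = 0.1 and 0.067 with it, 0.0267 and 0.00672 without), and library totals put that at day 21 at 0.13. Msmo1, the methylsterol oxidase that starts the demethylation, was lower at day 5 (-0.48 ± 0.12, adjusted p = 0.0222), where it measured 21.9 to 23.6 CPM against 28.8 to 32.6 CPM in control kidneys. It measured 25.8 to 32.6 CPM at day 14, overlapping control, and 33.6 to 45.2 CPM at day 21, above all controls, a change of 0.31 ± 0.12 that did not pass the test (adjusted p = 0.0557).

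Dhcr7, the last reductase of the route to cholesterol, was lower at all 3 times, by -0.70 ± 0.16 at day 5, -0.61 ± 0.16 at day 14 (0.12 with library totals) and -0.54 ± 0.16 at day 21, with adjusted p of 0.0135, 0.00647 and 0.02. Tm7sf2, a sterol C14-reductase, moved little: its change at day 5 was -0.20 (adjusted p = 0.0793, and 0.0312 without day-21 replicate 2), its fall at day 14 was -0.21 ± 0.07 (adjusted p = 0.0246, and 0.52 with library totals), and it measured 38.8 to 44.0 CPM at day 21 against 41.2 to 44.5 CPM in control kidneys. Tm7sf2 overlaps Vps51 on the same strand, and the strand setting of the counting is not given in the sources used here.

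Among the sterol sensors and SREBP genes, Insig1 fell most and did so earliest. Insig1, which retains the SREBP-Scap complex and is itself a target of SREBP (chromosome 5, 28276361 to 28283660), measured 42.1, 33.1 and 40.7 CPM in control kidneys, 16.0, 17.0 and 17.2 CPM at day 5, 21.2, 21.3 and 23.8 CPM at day 14, and 35.2, 35.5 and 24.3 CPM at day 21. Day 5 was lowest, day 14 lay between day 5 and control, and day 21 overlapped control. The log2 fold change was -1.21 ± 0.14 at day 5 (adjusted p = 0.000344), -0.81 ± 0.14 at day 14 (adjusted p = 0.000722) and -0.29 ± 0.14 at day 21 (adjusted p = 0.12, and 0.0353 without replicate 2). Library totals put it at -1.07 at day 5, -0.08 at day 14, which did not pass the test (adjusted p = 0.617), and 0.17 at day 21. Unlike Hmgcs1 or Idi1, Insig1 at day 21 was alike in replicates 1 and 2, and replicate 3 was lowest. Insig2, its paralog, did not pass the test at day 5 (-0.06 ± 0.11, adjusted p = 0.762) and was lower at day 14 (-0.50 ± 0.11, adjusted p = 0.00237) and day 21 (-0.34 ± 0.11, adjusted p = 0.0277), changes that library totals put at 0.23 and 0.11.

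Scap, the SREBP escort, measured 73.0, 68.2 and 71.9 CPM in control kidneys, 57.3, 63.2 and 63.7 CPM at day 5, 50.3, 51.4 and 50.1 CPM at day 14, and 50.3, 59.9 and 54.0 CPM at day 21. All toxin kidneys lay below all controls. The change was -0.21 ± 0.08 at day 5 (adjusted p = 0.102, and 0.0149 without day-21 replicate 2), -0.49 ± 0.08 at day 14 (adjusted p = 0.000443) and -0.38 ± 0.08 at day 21 (adjusted p = 0.00558), and library totals put the last 2 at 0.24 and 0.09. The transcription factors themselves changed little: Srebf2 was lower by -0.34 ± 0.10 at day 5 (adjusted p = 0.0409) and -0.26 ± 0.10 at day 14 (adjusted p = 0.041, and 0.47 with library totals). At day 21 its change was -0.21 (adjusted p = 0.0992), and -0.31 without replicate 2 (adjusted p = 0.00768). Leaving out any single control, day-5 or day-14 library ended the day-5 call of Srebf2, and 7 of the 12 libraries ended that at day 14. Srebf1 was higher at day 14, at 44.4, 41.9 and 36.2 CPM against 28.9, 34.6 and 27.0 CPM in control kidneys (0.44 ± 0.13, adjusted p = 0.0136), and did not pass the test at day 5 (-0.25 ± 0.13) or day 21 (0.14 ± 0.13). Its call at day 14 was lost without control replicate 1, control replicate 3 or day-14 replicate 1.

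In sterol and lipid handling, Lpin1 fell late and Stard4 early. Lpin1, a phosphatidate phosphatase of triglyceride synthesis that also acts as a coactivator of fatty acid oxidation genes, measured 89.4, 73.0 and 95.3 CPM in control kidneys, 66.8, 82.5 and 82.1 CPM at day 5, 27.7, 27.0 and 18.9 CPM at day 14, and 37.4, 48.2 and 25.9 CPM at day 21. Day 5 overlapped control, and days 14 and 21 lay wholly below. The change was -0.15 ± 0.21 at day 5 (adjusted p = 0.683), -1.81 ± 0.22 at day 14 (adjusted p = 9.09e-05) and -1.21 ± 0.22 at day 21 (adjusted p = 0.00285). Stard4, a carrier of cholesterol in the cytosol, measured 74.4, 80.1 and 82.4 CPM in control kidneys, 64.2, 48.3 and 47.9 CPM at day 5, 50.5, 48.9 and 52.6 CPM at day 14, and 65.9, 65.5 and 60.2 CPM at day 21. All 9 toxin kidneys lay below all controls, with day 21 nearest to them. The change was -0.56 ± 0.11 at day 5 (adjusted p = 0.0065), -0.64 ± 0.11 at day 14 (adjusted p = 0.000625, and 0.09 with library totals) and -0.31 ± 0.11 at day 21 (adjusted p = 0.0439, and 0.17 with library totals).

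The 4 genes of fatty acid synthesis split more than any other role. Scd1 fell, Scd2 fell and then rose, and Fasn and Acaca were low at days 5 and 21. At day 14 Fasn and Acaca differed between kidneys, along with the adipocyte markers described below. Scd1, the stearoyl-CoA desaturase that makes oleate (chromosome 19, 44382894 to 44396318), measured 366, 451 and 254 CPM in control kidneys, 270.5, 212 and 218 CPM at day 5, 81.8, 83.4 and 41.0 CPM at day 14, and 34.0, 167 and 64.2 CPM at day 21. Day 5 overlapped control, and days 14 and 21 lay wholly below both, with day-21 replicate 2 the highest of these. The change was -0.61 ± 0.48 at day 5 (adjusted p = 0.44), -2.38 ± 0.50 at day 14 (adjusted p = 0.00206) and -2.02 ± 0.50 at day 21 (adjusted p = 0.0105, or -2.87 ± 0.37 without replicate 2).

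Scd2, a desaturase of the same family (chromosome 19, 44282113 to 44295303), measured 84.4, 109 and 93.9 CPM in control kidneys, 63.6, 56.9 and 60.8 CPM at day 5, 158, 161 and 188 CPM at day 14, and 157, 112 and 209 CPM at day 21. Day 5 lay below all controls and days 14 and 21 above them, with day-21 replicate 2 just above the highest control. Scd2 was lower at day 5 (-0.66 ± 0.19, adjusted p = 0.0389), a call lost without 8 of the 12 libraries in turn, and higher at day 14 (0.82 ± 0.19, adjusted p = 0.00346) and day 21 (0.74 ± 0.19, adjusted p = 0.0128). The row of Mir5114, which lies within Scd2, moved alike (-0.68 ± 0.21 at day 5, which did not pass the test, 0.90 ± 0.21 at day 14 and 0.85 ± 0.21 at day 21), and reads of the pair could not be told apart. Scd3 had 1 to 11 reads in every library but day-21 replicate 3, which had 78, and Scd4 had 1 to 10, so neither passed the filter on low counts.

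Fasn, fatty acid synthase, measured 93.9, 147 and 74.0 CPM in control kidneys, 42.2, 67.5 and 51.2 CPM at day 5, 109, 105 and 68.2 CPM at day 14, and 41.7, 57.0 and 60.3 CPM at day 21. Day 5 and day 21 lay below all controls, and day 14 overlapped control. Fasn was lower at day 5 (-0.97 ± 0.28, adjusted p = 0.0384) and day 21 (-0.99 ± 0.28, adjusted p = 0.0176), and did not pass the test at day 14 (-0.16 ± 0.27, adjusted p = 0.636, or 0.58 with library totals). Acaca, acetyl-CoA carboxylase, followed Fasn, at 29.9, 43.5 and 26.4 CPM in control kidneys, 20.6, 27.8 and 22.2 CPM at day 5, 43.7, 42.6 and 25.2 CPM at day 14, and 17.6, 20.6 and 24.6 CPM at day 21. Only day 21 lay wholly below control, and only there did the change pass the test (-0.67 ± 0.24, adjusted p = 0.044), a call lost without 8 of the 12 libraries in turn, while at day 14 it was 0.16 ± 0.24 (adjusted p = 0.577).

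Markers of fat cells moved with Fasn and Acaca between kidneys of the same group. The summed level of 8 adipocyte markers was 58.0, 179 and 24.1 CPM in control kidneys, 3.27, 195 and 29.1 CPM at day 5, 512.5, 512.1 and 26.5 CPM at day 14, and 7.85, 12.0 and 351 CPM at day 21. In all 4 groups the 3 kidneys had the same order in Fasn and in Acaca as in the adipocyte markers. Srebf1 had this order in control, day 5 and day 14 but not at day 21. Day-14 replicate 3, low in these markers, lay below all controls in Fasn and Acaca, at 68.2 and 25.2 CPM. Adipoq, a defining marker, was at 0 reads in day-5 replicate 1 and at 2564 in day-14 replicate 1. With the marker level as a covariate, Fasn was lower by -0.81 at day 5 and -0.83 at day 21 (adjusted p = 0.0147 and 0.00735), Acaca by -0.55 at day 21 (adjusted p = 0.014), and Scd1 by -2.43 at day 14 (adjusted p = 0.00437). The 29 genes then had 13 lower at day 5, 17 lower and 3 higher at day 14, and 17 lower and 3 higher at day 21. All genes called lower made up 4.66, 26.7 and 18.2% in that fit, and those called higher 9.03, 29 and 23.6%. The covariate was chosen after the marker values were seen.

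**Figure D4:**
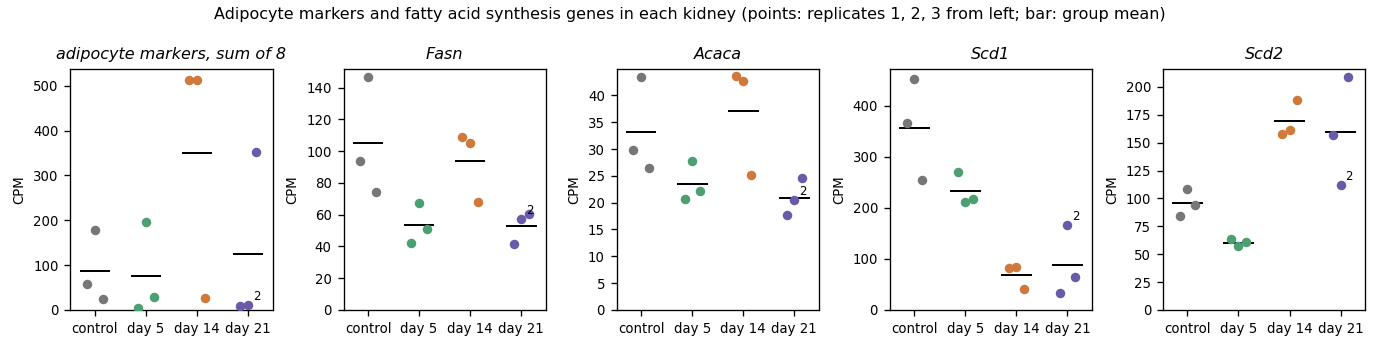
CPM (y axis) in each kidney by group for the sum of 8 adipocyte markers and for Fasn, Acaca, Scd1 and Scd2, with points for replicates 1 to 3 from the left, the bar at the group mean, and the digit 2 beside day-21 replicate 2. Day-14 replicates 1 and 2, at 512 CPM of adipocyte markers, had 109 and 105 CPM of Fasn, where replicate 3, at 26.5 CPM of markers, had 68.2 CPM.

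Between day 14 and day 5 the genes were tested directly, and 11 were lower and 8 higher at day 14, where 50.9% of all genes were called, 26.1% as lower and 24.7% as higher. The largest further falls were in Cyp51 (-2.35 ± 0.46, adjusted p = 0.00212), Scd1 (-1.76 ± 0.49, adjusted p = 0.0126), Lpin1 (-1.65 ± 0.22, adjusted p = 0.00032) and Idi1 (-1.47 ± 0.50, adjusted p = 0.0301). Genes that were higher at day 14 than at day 5 included Scd2 (1.49 ± 0.19, adjusted p = 0.000278), Srebf1 (0.69 ± 0.13, adjusted p = 0.00187), Fdps (0.65 ± 0.09, adjusted p = 0.000506), Fdft1 (0.35 ± 0.07, adjusted p = 0.00164) and Insig1 (0.40 ± 0.14, adjusted p = 0.0368). The other 3 higher genes were Fasn, Acaca and Msmo1, at 0.81, 0.66 and 0.34. The calls of Fasn and Acaca were each lost without day-14 replicate 1 or 2, the kidneys of that day high in adipocyte markers. Both were also lost without day-5 replicate 1 or 3, and that of Acaca without control replicate 1. The call of Idi1 was lost without any single day-5 or day-14 library, and that of Insig1 also without control replicate 3. Of the 19 calls, 11 were made without each library in turn, among them Cyp51, Scd1, Lpin1, Scd2, Srebf1, Fdps and Fdft1. The number higher was 4 without day-5 replicate 1, day-5 replicate 3 or day-14 replicate 2, and 5 without day-14 replicate 1, beside 18.4, 18.6, 18.8 and 20.5% of all genes. Without day-21 replicate 2 it was 12 lower and 9 higher, beside 30.1% and 29.5% of all genes, and with library totals 5 lower and 19 higher, beside 9.42% and 58.2%. The day-14 kidneys lay wholly below the day-5 kidneys in 13 genes and above in 10, beside 35.5% and 35.4%.

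Between day 21 and day 14 few genes passed the test: 5 were higher and 1 lower at day 21, where 14.6% of all genes were called, 7.03% as higher and 7.57% as lower. The 5 were Nsdhl (0.66), Insig1 (0.52), Hsd17b7 (0.47), Msmo1 (0.44) and Fdps (0.32), and the 1 lower was Acaca (-0.83), with adjusted p from 0.033 to 0.0449. None of these 6 calls was made without each library in turn. The number higher ran from 0 to 10 over the 12 fits, with 0 without control replicate 3, day-5 replicate 2, day-14 replicate 1 or day-14 replicate 2, 1 without control replicate 2, day-5 replicate 3 or day-14 replicate 3, 2 without control replicate 1 or day-5 replicate 1, and 8 and 10 without day-21 replicates 1 and 3. The share of all genes called higher ran from 1.41 to 12.8% over these fits. The number lower was 2 without day-21 replicate 2, and 0 without control replicate 1 or 3, any day-5 replicate, day-14 replicate 1 or 2, or day-21 replicate 1. Without day-21 replicate 2 there were 4 higher, beside 12.5% of all genes called higher and 11.4% lower, and with library totals 3 lower and 0 higher, beside 13.7% and 2.58%. The day-21 kidneys lay wholly below the day-14 kidneys in 2 genes and above in 8, beside 17.7% and 14.8%.

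The kidneys of day 21 were the most varied in these genes. The median coefficient of variation over the 29 genes was 19.3% at day 21, against 6.69% in control, 5.94% at day 5 and 5.16% at day 14. Replicate 2 lay above both other day-21 kidneys in 20 of 29 genes, between them in 5 and below both in 4. It exceeded their mean at least 2-fold in 5 genes, namely Idi1 (4.74), Cyp51 (4.04), Scd1 (3.39), Hmgcs1 (2.84) and Mvd (2.58), the same genes that had fallen deepest by day 14 apart from Lpin1. In Fdft1, Lss, Stard4 and Tm7sf2 the ratio was 1.02 to 1.04.

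The summed level of 12 proximal tubule markers, such as Slc34a1 and Lrp2, moved with the steep group. It was 18946 to 21279 CPM in control kidneys, 11969 to 13556 CPM at day 5, 2407 to 2560 CPM at day 14, and 3029, 14289.9 and 2273 CPM at day 21, where replicate 2 was again the high one. All 12 markers were lower at day 14 and 7 at day 21, beside 28.8 and 18.5% of all genes. At day 5 their median log2 fold change was -0.50, and 0 of 12 were called, beside 14.9% of all genes. The course was not particular to the proximal tubule. The sum of 6 loop and distal tubule markers was 5677 to 6023 CPM in control kidneys and 2389 to 2657 CPM at day 14. At day 21 it was 3476, 5091 and 3414 CPM. In bulk RNA, fewer tubule cells and less of these RNAs per cell cannot be told apart. The part of tubule loss in the fall of Cyp51, Idi1 or Hmgcs1 was not tested. Macrophage marker RNA rose in the other direction, with 10 markers summing to 908 to 941 CPM at day 14 against 83.3 to 110 CPM in control kidneys, and its part in the rises of Scd2, Fdps and Srebf1 was not tested.

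**Figure D5:**
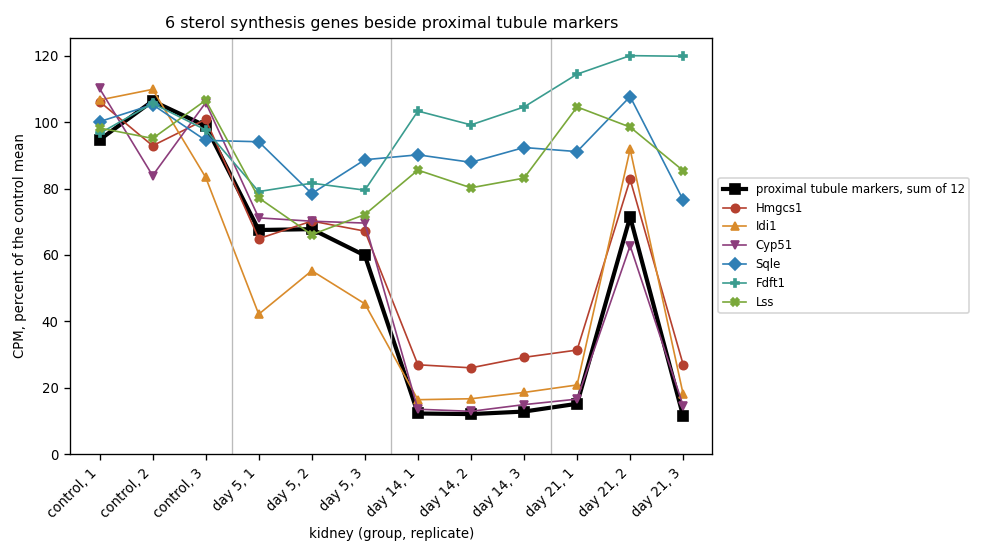
Level in each kidney as a percent of the control mean (y axis, CPM) for 6 sterol genes and for the sum of 12 proximal tubule markers (thick black line). Hmgcs1, Idi1 and Cyp51 dropped to 27.3, 17.2 and 13.8% at day 14 and were high again in day-21 replicate 2, whereas Fdft1, Sqle and Lss were at 82.99 to 102% at day 14.

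Other genes of the pathway were listed beside the 29. Their counts stand beside 5.09, 28.8 and 18.5% of all genes called lower at days 5, 14 and 21, and 9.77, 31.2 and 24.3% called higher. Of 7 further sterol synthesis genes, 1 was lower at day 5, 5 lower and 1 higher at day 14, and 4 lower at day 21. Por, the electron donor of Cyp51 and Sqle, fell to 122, 114 and 101 CPM at day 14 against 313, 315 and 305 CPM in control kidneys (-1.47 ± 0.16, adjusted p = 4.74e-05), and was lower at day 5 too (-0.85 ± 0.16, adjusted p = 0.00489). Lbr, which shares the C14-reductase activity of Tm7sf2, fell by -0.93 ± 0.16 at day 14 (adjusted p = 0.000662).

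Of 16 further genes of fatty acid synthesis and esterification, 2 were lower at day 5, 10 lower and 1 higher at day 14, and 9 lower and 1 higher at day 21. Gpam, which starts glycerolipid synthesis, was lower by -1.28 ± 0.18 at day 14 (adjusted p = 0.000206), and Mlxipl, the carbohydrate-sensing factor ChREBP, by -1.01 ± 0.16 (adjusted p = 0.000354). Of 16 genes of sterol uptake and SREBP processing, 2 were lower and 1 higher at day 5, 5 lower and 6 higher at day 14, and 7 lower and 3 higher at day 21. In either direction this was 3, 11 and 10 of 16, where 14.9, 60 and 42.8% of all genes were called.

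Of 12 genes of sterol efflux, storage and LXR, 2 were higher at day 5, 6 higher and 6 lower at day 14, and 5 higher and 4 lower at day 21. Apoe, the lipoprotein ligand, measured 807, 778 and 737 CPM at day 14 against 139, 131 and 162 CPM in control kidneys (2.43 ± 0.31, adjusted p = 0.00012). Plin2, the coat protein of lipid droplets, was highest at day 5, at 226, 171 and 204 CPM against 74.9, 77.4 and 75.4 CPM in control kidneys (1.40 ± 0.15, adjusted p = 0.000196). Abca1, the cholesterol exporter, was the other gene higher at day 5 (2.21 ± 0.33, adjusted p = 0.00135).

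Clock genes also differed at day 5, when Insig1 was lowest. Of 15 tested clock genes, 9 were lower and 3 higher at day 5, beside 5.09 and 9.77% of all genes. Lower calls numbered 6 and higher calls 3 at both day 14 and day 21. Beside these stood 28.8 and 31.2% of all genes at day 14, and 18.5 and 24.3% at day 21. Dbp, an output of the clock, measured 4.22, 3.97 and 4.03 CPM at day 5 against 111, 70.95 and 130.0 CPM in control kidneys (-4.67 ± 0.30, adjusted p = 1.51e-05), and Tef was lower by -1.99 ± 0.13 (adjusted p = 1.51e-05). The hour of collection is not given in the labels, and its part in the day-5 values of the synthesis genes was not tested.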

How the data were processed

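Whole-kidney RNA of Pod-TRECK mice was sequenced in 12 libraries after DNase digestion and enrichment of poly(A) RNA, per the labels' protocols. The authors deposited raw counts, 1 whole number of reads for each gene and library. Per the submitters' processing notes, fastp 0.20.0 and featureCounts were used and the build was GRCm39. Strand setting, aligner, multi-mapping rule and annotation release were not given in the sources used here, so reads of paralogs and overlapping genes may be shared. The table has 3 blank columns, and 2803 genes without a symbol, which hold 2.14% of the counts. These were tested but not named. Its length column exceeds the span of 2.03% of genes, so no level was compared between genes.

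The counts were fitted with edgeR 4.0.16 (R 4.3.3, with limma 3.58.1). After filterByExpr and TMM scaling, a quasi-likelihood model had 1 coefficient per group over all 12 libraries. P-values were adjusted by Benjamini-Hochberg over all 19821 genes of a comparison, and called under 0.05. The standard error (SE) is the size of the log2 fold change over the root of F. CPM values are TMM-scaled. Groups came from the sample titles, and the design text calls the replicates biological. P-values set the difference between groups against the spread between these samples within groups, estimated over all 4 groups together. Members and gene lists were chosen with earlier results of these data known. Every member is named. Values of every library are printed for the 2 members per role with the smallest joint p and for those called in opposite directions. From other lists the 2 members with the smallest joint p are named, apart from some genes that are not reported here, and any other gene was chosen after its values were seen.

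No libraries were identical. Replicates were compared by chi-square per degree of freedom, which was lowest for day-14 replicates 1 and 2 (4.59, above sampling noise; the next pair had 11.7). All were kept as samples, and whether that pair shares a source was not tested. Alternatives were median-of-ratios factors, library totals, DESeq2 1.42.0, limma-voom, no filter, a filter at 1 CPM in 3 libraries, a log2 fold change of at least 1, leaving out each library, fits of only the 6 libraries compared, and the replicate number as a block. An adipocyte marker covariate and the sum of day-14 replicates 1 and 2 were added after the data were seen. Simulated counts with known changes were used to test the fit for the comparisons with control. All libraries were drawn from the control profile, and 99 or 100 genes per fold size, of 18052 to 18141, were changed, up and down alike. This setting has no broad shift such as that at day 14, where 60% of all genes were called, so it cannot test the scaling. Changes of 2-fold were called in the right direction in 49 to 54% of genes, and those of 4-fold in 80.8 to 83%. Of the unchanged genes, 5 to 9 were called. Promoter windows were read from a RefSeq table of assembly GRCm38.p6 by gene symbol.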

Additional observations from a re-analysis of the deposited data

Results flagged for a closer look

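For 2 genes a called change at day 14 ran against a called change at day 5, and the difference between the 2 times was called too. Both genes were picked by all of these calls, so the p-values of the difference given here are no separate support. Fdps was below control at day 5 and above it at day 14, and day 14 exceeded day 5 by a log2 fold change of 0.65 ± 0.09 (adjusted p = 0.000506 in edgeR's quasi-likelihood test), with all 3 day-14 kidneys above all 3 day-5 kidneys. Scd2 did the same, with a difference of 1.49 ± 0.19 (adjusted p = 0.000278), again in all 3 kidneys against all 3. In both genes this order follows from day 5 lying wholly below control and day 14 wholly above it. Both differences passed the test without each of the 12 libraries in turn and when scaled to library totals (1.23 for Fdps and 2.07 for Scd2). Both overlap another gene, Gm43738 and Mir5114, and reads of these pairs may be shared.

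In 3 further genes all kidneys of 1 time lay below all controls and all kidneys of another time above them. These genes were picked by that order, so the p-value given for Srebf1 is no separate support for it. Srebf1 lay below at day 5, where its change did not pass the test, and above at day 14, and day 14 exceeded day 5 by 0.69 ± 0.13 (adjusted p = 0.00187). Fdft1 was called lower at day 5 (-0.32) and higher at day 21 (0.24). Msmo1 was called lower at day 5 (-0.48), and its 0.31 at day 21 did not pass the test. For Fdft1 and Msmo1 the difference between day 21 and day 5 was not tested.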

How the results depend on the processing

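Under median-of-ratios size factors, a CPM of at least 1 in 3 libraries, DESeq2, limma-voom and no filter, all counts of genes against control stayed within 1.5 times. Library totals gave 5 lower at day 5, 9 lower and 14 higher at day 14, 6 lower and 10 higher at day 21, 5 lower and 19 higher for day 14 against day 5, and 3 lower and 0 higher for day 21 against day 14. They also turned the sign of 43 changes. Of these, 27 passed the test with TMM factors, with library totals or with both. At day 14 against control these were Acat2 0.43, Dhcr7 0.12, Insig2 0.23, Lss 0.46, Msmo1 0.60, Mvk 0.0153, Scap 0.24, Sqle 0.58, Srebf2 0.47, Stard4 0.0897 and Tm7sf2 0.52. At day 21 they were Insig2 0.11, Lss 0.42, Mvk 0.00888, Scap 0.0928, Sqle 0.33, Srebf2 0.25, Stard4 0.17 and Tm7sf2 0.43. For day 14 against day 5 they were Acat2 0.50, Hsd17b7 0.14, Insig2 0.14, Nsdhl 0.0446, Sc5d 0.32, Scap 0.31, Stard4 0.51 and Tm7sf2 0.58. The other 16 passed in neither: Insig2 at day 5 (0.08), Fasn at day 14 (0.58), Acat2, Hsd17b7 and Insig1 at day 21 (0.07, 0.13 and 0.17), and 11 for day 21 against day 14. The cause was not tested.

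A log2 fold change of at least 1 left 1 lower at day 5, and 9 lower and 0 higher at day 14. At day 21 it left 4 lower and 0 higher. For day 14 against day 5 it left 6 lower and 1 higher, and 0 for day 21 against day 14. All genes called lower in that setting made up, in the same order, 1.52, 13.2, 5.74, 9.89 and 2.65%. Those called higher made up 4.57, 17.8, 13.1, 13.3 and 1.91%. Fits of only the 6 libraries compared gave 23 lower at day 5, 2 lower and 1 higher at day 21, and 0 for day 21 against day 14, where 38.4, 8.9 and 1.37% of all genes were called. For day 21 against day 14, DESeq2 gave 10 higher and 2 lower, beside 11 and 10.6% of all genes. There limma-voom gave 0 lower, beside 8.98%, and no filter gave 3 higher, beside 3.19%. The adipocyte covariate and the summed day-14 replicates, both added later, gave 0 in either direction there, beside 5.98 and 4.51% of all genes. The summed replicates gave 5 higher for day 14 against day 5, beside 19.8% of all genes. Leaving out 1 library at a time gave 6 to 22 lower at day 5, 1 to 3 higher at day 14, 6 to 21 lower and 1 to 4 higher at day 21, 4 to 9 higher for day 14 against day 5, and 0 to 10 higher and 0 to 2 lower for day 21 against day 14.

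Same-numbered libraries deviated together with correlations of -0.14 to 0.17, which cannot exclude a shared source or handling. The sample titles give a replicate number and no pairing. With the replicate block, 12 genes were lower at day 5, and 18 lower and 3 higher at day 14. There were 15 lower and 3 higher at day 21, and 2 higher and 1 lower for day 21 against day 14. All genes called lower in that fit made up 4.56, 28.3, 18.9 and 6.29%, and those called higher 8.83, 30.6, 22.5 and 4.87%.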
